A study of Mus musculus with 4 samples.

Results

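The genes of the apical junctions of the colon epithelium were examined: the claudins and other tight junction proteins, the adherens junction proteins, the desmosome proteins and *Epcam*. A gene was included if the name of a gene probe in the array files began with Cldn, Dsg, Dsc or Tjp followed by a digit, or was one of the further names listed here (*Ocln*, *Marveld2*, *Marveld3*, *F11r*, *Cgn*, *Cdh1*, *Cdh17*, *Ctnna1*, *Ctnnd1*, *Jup*, *Dsp*, *Pkp1*, *Pkp2*, *Pkp3*, *Ppl*, *Evpl* and *Epcam*). This gave 52 genes with 81 probes, of 27225 genes on the array. The rule used names and no measured value. The names differ in part between the array files of the 2 experiments, and a gene was kept if either version named it. *Cldnd1* and *Tmem114* entered under the older names Cldn25 and Cldn26. For *Cgn*, *Ctnnd1* and *Dsg1c*, the newer version gave a transcript identifier in place of a name that the older one used.

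Expression was measured on 4 dual-color Agilent arrays in male C57BL/6 mice aged 6 to 8 weeks. On 2 arrays, colon RNA of *Rspo3* KO mice (Myh11CreErt2/Rspo3 fl/fl) was hybridised against that of Myh11CreErt2/Rspo3 +/+ littermates (Rspo3++ in the labels) 2 weeks after depletion, with 1 mouse per channel and the dyes reversed between pairs, so that n = 2 pairs. On the other 2 arrays, Axin2+ and Axin2- cells of Axin2CreErt2/Rosa26-tdTomato mice, taken by cell sorting 24 h after tracing began, were compared as pools of 3 mice, again with the dyes reversed. Both arrays hold the same pools, so that the sorted cells are 1 replicate without a test. All groups thus carry a CreErt2 allele, and the labels give the same tamoxifen protocol for each sample (4 mg per 25 g body weight, once or on 3 days). Myh11 drives the Cre in smooth muscle and myofibroblasts and not in the epithelium that holds the junctions, and the reporter marks cells that had *Axin2* promoter activity at tamoxifen and their early progeny. Loss of *Rspo3* could not be read from the arrays: 1 of its 2 probes exceeded background, on the array of pair 2 only, with a log2 ratio of 0.17, and "KO" below means the channel labelled so. *Myh11*, a smooth muscle gene, was above background in all 4 colon channels and in 0 of 4 channels of the sorted cells.

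Tight junctions seal the space between epithelial cells near their apical side. Their strands are built of claudins, of which some tighten the barrier (barrier claudins, such as *Cldn3*, *Cldn4* and *Cldn8*) and others form pores for small ions and water (pore claudins, such as *Cldn2*, *Cldn10* and *Cldn15*), and the ZO proteins (Tjp genes) tie them to actin. Adherens junctions hold cells together through E-cadherin (*Cdh1*) and its catenins, and desmosomes through desmogleins and desmocollins that plakophilins and desmoplakin link to keratins. In the gut, *Cldn2* is known as a claudin of crypt cells, whereas several barrier claudins are more abundant toward the surface.

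In the sorted cells, the pore claudins and the barrier claudins went opposite ways. On each array the 2 measured pore claudins were higher and the 6 measured barrier claudins lower in Axin2+ cells. A gene was taken as measured if either channel of its brightest probe exceeded background clearly on each array of the experiment, and as past 1.5-fold if the mean log2 ratio passed that fold and both arrays had the same sign. Of the 52 genes 33 were measured, of which 1 was past 1.5-fold higher in Axin2+ cells (*Cldn2*) and 3 were lower (*Cldn4*, *Cldn14* and *Evpl*). Among all 15822 genes measured, 7.82% were past this fold higher and 6.95% lower, so that 1 and 3 of 33 are counts near the background. At any size, 20 of the 33 genes were lower on both arrays and 6 were higher on both, against 41.7% and 41% of all genes. The median log2 ratio of the 33 genes was -0.14 (-0.099 on array 1 and -0.17 on array 2), and that of all genes -0.0055. The SD between the dye-swapped arrays had a median of 0.089 over the 33 genes. The 19 others were not above background on both arrays, among them *Cldn1*, *Cldn5*, *Cldn6*, *Cldn10*, *Cldn11*, *Cldn18* and *Cldn19*.

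**Figure D1:**
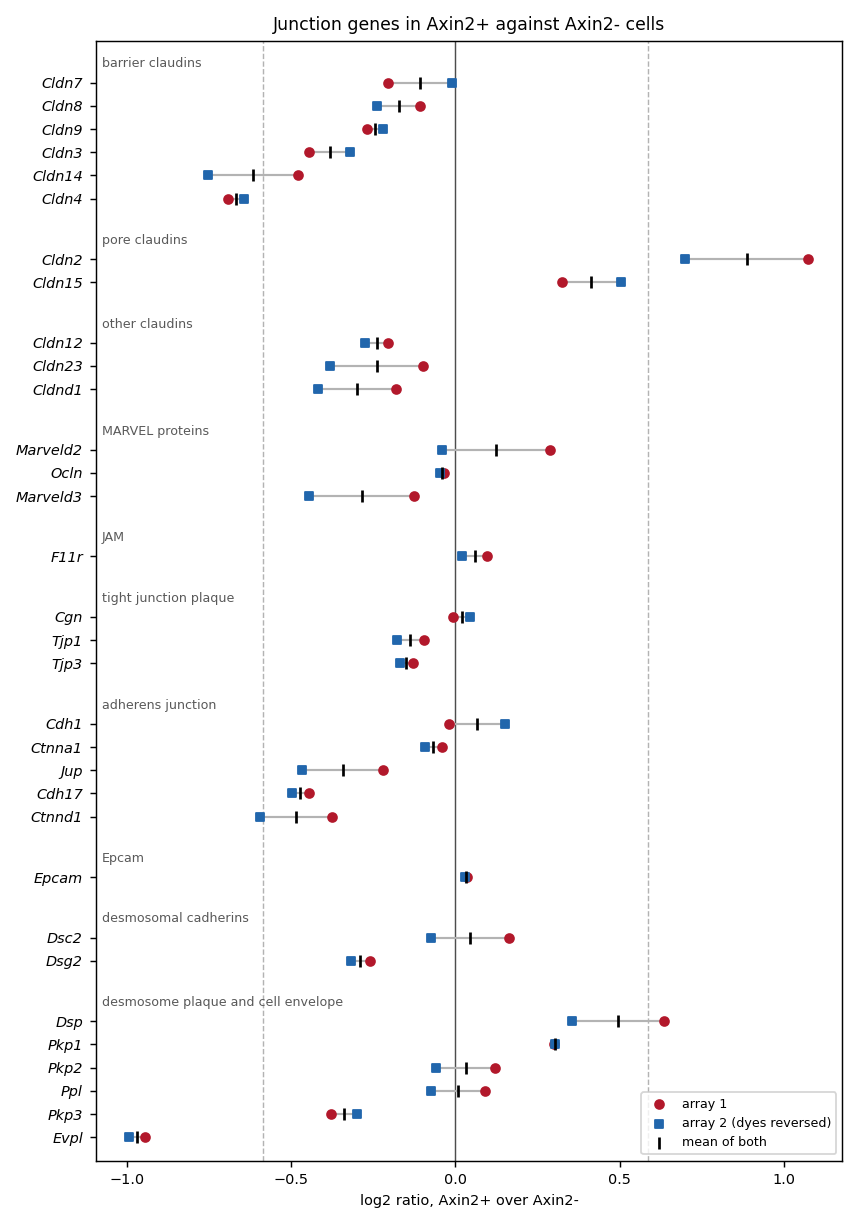
Log2 ratio of Axin2+ over Axin2- cells for 32 of the 33 measured junction genes, grouped by role, with array 1 as red circles, array 2 as blue squares, their mean as a black tick and the 1.5-fold limits as dashed lines. *Cldn2* lies right of the upper limit on both arrays, *Cldn4* and *Evpl* lie left of the lower one on both, and all 6 barrier claudins lie left of 0.

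*Cldn2*, which forms pores for cations and water, had log2 ratios of 1.08 on array 1 and 0.70 on array 2 (mean 0.89, SD 0.27 between dye swaps, 1.85-fold). Its probe lies on chromosome X of mm9 from 136345244 to 136345303. *Cldn15*, a pore claudin for sodium, had ratios of 0.33 and 0.50 (mean 0.41), in the same direction but short of 1.5-fold. *Cldn10*, the other pore claudin measured in colon, did not exceed background in the sorted cells. *Cldn2* and *Cldn15* were higher by the mean under every other processing tried, and without the filter on dim probes 3 of 4 pore claudins were; with median centring in place of loess the 2 arrays had opposite signs for *Cldn2* and for *Cldn15*.

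The barrier claudins had a median log2 ratio of -0.31. *Cldn4* was lowest, with ratios of -0.69 and -0.64 (mean -0.67, 1.59-fold lower), and *Cldn14* followed with -0.48 and -0.75 (mean -0.62). *Cldn3* was at -0.45 and -0.32 and *Cldn9* at -0.27 and -0.22. *Cldn8* was at -0.11 and -0.24. *Cldn7*, the brightest of the group, was at -0.20 and -0.012. Array 2 thus put it next to no difference. The mean of each of the 6 genes was below 0 under all alternatives, although with median centring the 2 arrays had opposite signs for all 6. Without the filter on dim probes, 10 of 12 barrier claudins had a mean below 0. *Cldn12*, *Cldn23* and *Cldnd1*, with no agreed barrier or pore role here, were also lower on both arrays, with means between -0.30 and -0.24.

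The sequence from 250 bases before to 50 after the transcription start (RefSeq, GRCm38.p6) is shown for *Cldn2* and *Cldn15*, which were higher in Axin2+ cells and lower in KO colon, and for *Cldn4*, the lowest barrier claudin in Axin2+ cells. Capitals mark matches, on either strand, to a Tcf/Lef motif (CTTTGAT), an E-box (CAGGTG), a Cdx motif (TTTATNG), an Hnf4 motif (CAAAGTC) or a TATA box (TATAAA).
Cldn2, chrX:139800558-139800857, plus strand: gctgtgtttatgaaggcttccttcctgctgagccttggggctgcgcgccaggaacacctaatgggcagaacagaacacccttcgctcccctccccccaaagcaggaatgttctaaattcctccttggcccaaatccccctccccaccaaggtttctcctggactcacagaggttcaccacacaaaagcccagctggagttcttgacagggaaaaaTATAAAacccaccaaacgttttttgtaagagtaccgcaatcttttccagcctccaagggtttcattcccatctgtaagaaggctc
Cldn15, chr5:136967619-136967918, plus strand: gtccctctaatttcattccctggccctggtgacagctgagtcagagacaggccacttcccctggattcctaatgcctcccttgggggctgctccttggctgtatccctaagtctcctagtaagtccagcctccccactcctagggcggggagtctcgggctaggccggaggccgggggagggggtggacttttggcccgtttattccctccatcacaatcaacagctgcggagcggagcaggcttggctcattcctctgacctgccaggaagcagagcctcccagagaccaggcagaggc
Cldn4, chr5:134946885-134947184, minus strand: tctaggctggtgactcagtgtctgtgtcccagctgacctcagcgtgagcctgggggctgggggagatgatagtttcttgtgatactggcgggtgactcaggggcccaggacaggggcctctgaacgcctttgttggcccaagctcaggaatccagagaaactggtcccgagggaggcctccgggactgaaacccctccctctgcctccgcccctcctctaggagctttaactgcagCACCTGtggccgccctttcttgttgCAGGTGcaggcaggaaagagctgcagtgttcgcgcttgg
*Cldn2* held a TATA box at position -35 from the start, *Cldn15* held none of these letters, and *Cldn4* held 2 E-boxes, at positions -14 and 12. The reference table had 41 start sites for 29 of the 52 genes. The E-box was in 34.1% of these 41 windows and in 20.2% of all 32851 windows, the TATA box in 9.76% against 13.6%, the Cdx motif in 4.88% against 10.9%, the Tcf/Lef motif in 4.88% against 3.73% and the Hnf4 motif in 0% against 4.44%. Windows of 1 gene can overlap, and these matches are letters and not sites shown to be bound.

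The rest of the tight junction genes were short of 1.5-fold between the sorted cells. Occludin (*Ocln*), a MARVEL protein of the strands, was at -0.034 and -0.048, and its 2 probes had means of -0.041 and 0.10. *Marveld3* was lower at -0.13 and -0.45, whereas *Marveld2* (tricellulin) was at 0.29 and -0.042, with its other probe in the opposite direction. *F11r*, which encodes the adhesion molecule JAM-A, was at 0.097 and 0.021. Among the plaque genes, *Tjp3*, the brightest, was at -0.13 and -0.17, *Tjp1* (ZO-1) at -0.096 and -0.18, and *Cgn* (cingulin) had opposite signs on the 2 arrays, with a mean of 0.019. The 3 probes of *Cgn* had means from 0.019 to 0.42.

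Of the 5 adherens junction genes, 4 were lower in Axin2+ cells on both arrays, against 41.7% of all genes. With the mean over a gene's probes 3 of the 5 were, and the mean of *Ctnna1* was then above 0. *Ctnnd1* (p120 catenin) had ratios of -0.38 and -0.59, and its 3 probes were all lower (-0.49 to -0.13). *Cdh17*, a cadherin of the intestinal lineage, was at -0.45 and -0.50, and *Jup* (plakoglobin) at -0.22 and -0.47. *Cdh1* itself was at -0.021 and 0.15. The array carries its probe on several spots, and the SD between spots was 0.039 over 10 spots on array 1 and 0.025 over 9 on array 2, smaller than the gap between the dye swaps. The brightest gene, *Ctnna1* (alpha-catenin), had probes that disagreed, with means of -0.068 for the brighter and 0.62 for the other.

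*Epcam* had ratios of 0.036 and 0.030, and a mean of -0.28 with median centring. EpCAM is the protein behind ESA, one of the markers on which both fractions were sorted, so that this is no independent measure.

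In the desmosomes, *Evpl* (envoplakin, which links desmosomes to the cell envelope) had the largest difference of all 33 genes, with ratios of -0.95 and -0.99 (mean -0.97, 1.96-fold lower in Axin2+ cells). Its second probe, on chromosome 11 of mm9 from 116082184 to 116082243, gave -0.79 and -1.01. *Pkp3*, a plakophilin, was lower too (-0.38 and -0.30), whereas *Pkp1* was higher (0.30 and 0.30). *Dsp* (desmoplakin) was at 0.64 and 0.36 by its brightest probe, but 2 of its 4 probes were higher and 2 lower, with means from -0.23 to 0.50, so its direction was not settled. *Pkp2* and *Ppl* (periplakin) differed in sign between the arrays. Of the desmosomal cadherins, only *Dsg2* and *Dsc2*, the pair known from simple epithelia, were measured. *Dsg2* was lower by 4 of 4 measured probes (-0.39 to -0.26), and the 3 probes of *Dsc2* ranged from -0.20 to 0.045. The skin-type *Dsg1a*, *Dsg1b*, *Dsg1c*, *Dsg3*, *Dsg4*, *Dsc1* and *Dsc3* were not measured in either experiment.

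The stem and crypt base list (14 genes) was higher in Axin2+ cells with a median log2 ratio of 1.15, the mitosis list (14 genes) with 0.84, and the surface enterocyte list (15 genes) was lower with -2.29. The stem and mitosis lists had the sign of the pore claudins. The surface list had the sign of the barrier claudins (median -0.31), as did the general epithelium list (14 genes, median -0.36). The part of these lists in the claudin ratios was not tested. Endothelial genes were near background, with summed linear levels of the 5 of 12 measured genes between 513 and 559 in the 4 channels.

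In the *Rspo3* KO arrays, 34 of the 52 genes were measured, and the 2 pore claudins higher in Axin2+ cells had ratios below 0 in both pairs. The log2 ratios of *Cldn2* were -0.61 in pair 1 and -0.60 in pair 2 (mean -0.61, SD 0.0059, n = 2 pairs, 1.52-fold lower, limma adjusted p = 0.919). Those of *Cldn15* were -0.61 and -0.66 (mean -0.63, SD 0.037, n = 2 pairs, limma adjusted p = 0.846). The third measured pore claudin, *Cldn10*, which forms ion-selective channels in kidney and other epithelia, was higher in both KO mice, at 1.52 and 1.24 (mean 1.38, SD 0.20, n = 2 pairs, 2.60-fold, limma adjusted p = 0.103). *Cldn23* was also higher in both, at 1.48 and 0.22 (mean 0.85, n = 2 pairs, limma adjusted p = 0.931), with a gap between the pairs larger than its mean.

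By limma's moderated test over 15330 genes, 0 of the 34 junction genes passed an adjusted p of 0.05, against 34 genes in all (0.222%), and 4 of them had an unadjusted p under 0.05, against 4.59% of all genes. These 4 were *Cldn10*, *Cldn15*, *Cldn2* and *Cldn23*, which were also the 4 past 1.5-fold in the same direction in both pairs, 2 higher (1.83% of all genes) and 2 lower (2.46%). For *Cldn10* the call changed with the processing. Its adjusted p by limma was 0.00449 with an offset of 16 (mean 1.69), 0.0199 with the extraction software's log ratios (mean 2.33) and 0.0357 without background correction (mean 1.49), it reached 0.9996 with the background fitted to all spots (mean 0.73) and 1 with median centring (mean 1.43). *Cldn2* and *Cldn15* were short of 1.5-fold with the background fitted to all spots (-0.45 and -0.49) and with median centring (-0.56 and -0.57), which also gave each of them opposite signs in the 2 pairs. A dye term over 4 arrays could be fitted only to the 13583 genes measured in both experiments, and so not to *Cldn10*. There, limma's adjusted p was 0.1575 for *Cldn2*, 0.1252 for *Cldn15* and 0.0716 for *Cldn23*. This fit takes the dye effect as the same in both experiments. Its spread draws in part on the dye swap of the same pools, so these values add no replication. Over all genes the median SD was 0.087 between those dye swaps and 0.24 between the KO pairs.

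**Figure D2:**
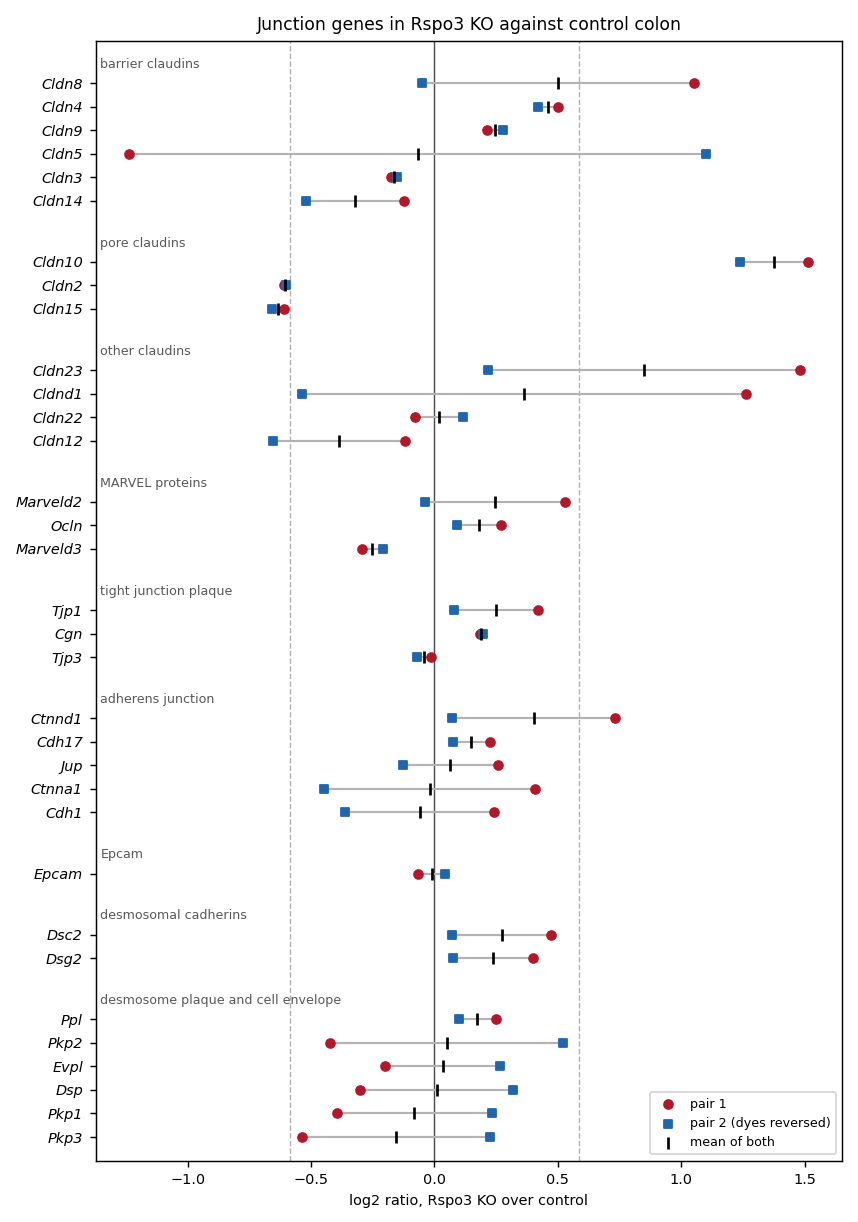
Log2 ratio of *Rspo3* KO over control colon for 33 of the 34 measured junction genes, grouped by role, with pair 1 as red circles, pair 2 as blue squares, their mean as a black tick and the 1.5-fold limits as dashed lines. *Cldn10* lies right and *Cldn2* and *Cldn15* lie left of the limits in both pairs, and the points of 5 of the 6 desmosome plaque genes lie on both sides of 0.

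The median log2 ratio of the 34 genes was 0.042 (0.20 in pair 1 and 0.073 in pair 2) and that of all genes -0.011. In both pairs 12 of the 34 were higher and 8 lower, against 20.3% and 23.8% of all genes, and 14 went opposite ways, against 55.9%. Pair and dye turned together on these arrays, and Pearson's r between pairs over all genes was 0.027, so that a difference between the pairs and a dye effect cannot be told apart.

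The barrier claudins did not mirror the sorted cells as a group. *Cldn4*, which was lower in Axin2+ cells, was higher in both KO mice (0.50 and 0.42, mean 0.46, limma adjusted p = 0.9997), and *Cldn9* was at 0.21 and 0.28. *Cldn3*, the brightest measured one, was at -0.18 and -0.15, and *Cldn14* at -0.12 and -0.52. *Cldn8* was higher in pair 1 (1.05) and at -0.051 in pair 2. *Cldn7* and *F11r* had no value, since their only spot was flagged as an outlier on both arrays; with those spots kept, a choice made after seeing the data, *Cldn7* was at -0.093 and -0.0078 and *F11r* at 0.35 and 0.065.

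*Cldn5*, the main claudin of blood vessel endothelium, had the widest gap between pairs, at -1.24 in pair 1 and 1.102 in pair 2. It was above background in 1 of 4 channels of the sorted cells and in all 4 of the colon, where all 12 endothelial marker genes were measured. Of these 12, 8 went opposite ways in the 2 pairs, against 55.9% of all genes, and 4 were higher in both, against 20.3%. Of the 3 brightest, *Ramp2* was at -0.65 and 0.60 and *Plvap* at -0.078 and 0.50, with the signs of *Cldn5*, whereas *Cd34* was at 0.48 and 0.0094. The summed linear level of the list was 10830 in the KO and 10120 in the control of pair 1, and 12600 and 11240 in pair 2, and its part in the *Cldn5* ratios was not tested. In bulk colon, fewer cells of a type and less RNA per cell cannot be told apart.

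Desmosome plaque genes differed between the pairs in 1 direction. *Pkp1*, *Pkp2*, *Pkp3*, *Dsp* and *Evpl* were lower in the KO of pair 1 (-0.54 to -0.20) and higher in that of pair 2 (0.23 to 0.52), and *Ppl* was at 0.25 and 0.10. Opposite signs in the 2 pairs were thus found in 5 of these 6 genes and in 55.9% of all genes. The mitosis list went the same way, with a median of -0.54 in pair 1 and 0.30 in pair 2 and 11 of 14 genes in opposite directions. Its 3 brightest genes were *Birc5* (-0.37 and 0.33), *Mki67* (-0.97 and 0.27) and *Ccnb2* (-0.46 and 0.67), and its part in the plaque ratios was not tested. *Pkp2* had the widest gap, at -0.42 and 0.52. With the mean over a gene's probes 5 of the 6 were opposite too, but single probes differed. Those of *Dsp* had means from -0.057 to 0.018. Besides its brightest probe (-0.30 and 0.32), *Dsp* had a probe with the same signs (-0.092 and 0.13). Another had the reverse signs (0.062 and -0.11), and the last was lower in both pairs (-0.082 and -0.031). The second probe of *Evpl* was at -0.24 and 0.022. In contrast, *Cdh1* (0.24 and -0.36), *Ctnna1* (0.41 and -0.45) and *Jup* (0.26 and -0.13) were higher in pair 1 and lower in pair 2. *Ctnna1* was read here by the dimmer of its probes, which disagreed in the sorted cells, since the brighter (0.37 in pair 1) had no value in pair 2. For *Cdh1* the SD between spots was 0.073 over 6 spots in pair 1 and 0.025 over 7 in pair 2. The mean Cy5 over Cy3 log2 ratio of both KO arrays was -0.47 for *Pkp2* and -0.38 for *Pkp3*. There it holds the difference between the pairs of mice together with any dye effect. On the arrays of the sorted pools, which hold the same RNA with dyes reversed, it was 0.091 and -0.039. The values of the 2 experiments are thus unlike measures. Of the list of squamous epithelium, a tissue rich in desmosomes, 13 of 22 were measured, with a median of 0.0099 (-0.19 in pair 1 and -0.029 in pair 2). Of the 13, 4 were higher and 5 lower in both pairs and 4 opposite, against 20.3%, 23.8% and 55.9% of all genes. Past 1.5-fold, 1 was higher and 3 were lower (*Ly6d*, *Krt15* and *Lor*), against 1.83% and 2.46% of all genes. Its summed linear level was 6369 in the KO and 7538 in the control of pair 1, and 6434 and 6153 in pair 2. Its 3 brightest genes were *Sfn* (0.055 and 0.26), *Krt17* (0.053 and 1.13) and *Ly6d* (-1.98 and -0.82). The next were chosen after their values were seen. *Krt15* was at -1.33 and -0.39, *Lor* at -0.64 and -0.93 and *Krt5* at -1.60 and 0.15. Other genes of the list went other ways, with *Krt10* at 1.15 and -0.67, *Krt13* at -0.28 and 0.30 and *Lgals7* at 0.97 and 0.072. *Trp63*, *Krt4*, *Krt6a* and *Ivl* were not measured, and the part of such cells in the plaque ratios was not tested.

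The remaining junction genes in KO colon were also short of 1.5-fold by the mean. *Ctnnd1* was at 0.73 and 0.072 (3 of 3 probes higher), *Dsg2* at 0.40 and 0.077 and *Dsc2* at 0.47 and 0.073. The other measured probes of *Dsg2* went opposite ways, from 0.55 to 0.73 in pair 1 and from -0.39 to -0.19 in pair 2, and the 3 probes of *Dsc2* had means from -0.15 to 0.27. *Tjp1* was at 0.42 and 0.078 and *Tjp3* at -0.014 and -0.070. *Cgn* was at 0.19 and 0.20 by its brightest probe, which lies at 94465414 to 94465473 on chromosome 3 of mm9. Its other probes lie apart, at 94577435 to 94577494 and 94579729 to 94579788, with means of -0.0014 and -0.18. Both of these went opposite ways in the pairs, so that the count of *Cgn* as higher in both rests on the brightest probe. *Ocln* was at 0.27 and 0.090, *Marveld3* at -0.29 and -0.21, and *Cldn12* at -0.12 and -0.66. *Epcam* was at -0.067 and 0.044, next to no difference in either pair.

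The 2 experiments share no samples, and 31 junction genes were measured in both, 27 of them by the same probe. Of the 31, 6 were higher in Axin2+ cells and lower in KO by the mean, 12 were lower and higher, and 13 had the same sign in both. The share with opposite signs, 58.1%, was close to the 56.5% of all 13583 genes measured in both. Pearson's r across the 31 genes was -0.37 and Spearman's rho -0.25 (-0.17 and -0.18 across all genes). These are descriptions, since genes are not independent replicates and both axes come from 1 array design. Of the 31, 2 were higher in Axin2+ cells on each array and lower in KO in each pair (*Cldn2* and *Cldn15*), against 12.9% of all 13583 genes, and 8 were the reverse, against 9.48% (*Cldn4*, *Cldn9*, *Cldn23*, *Ocln*, *Tjp1*, *Dsg2*, *Cdh17* and *Ctnnd1*). In KO colon the stem and crypt base list had a median of -0.47, with 9 of 14 genes lower and 2 higher in both pairs, against 23.8% and 20.3% of all genes, and its part in the ratios of *Cldn2* and *Cldn15* was not tested. The surface enterocyte list had a median of 0.25 in KO colon. Of its 10 measured genes, 4 were higher and 1 lower in both pairs, against 20.3% and 23.8% of all genes. The other 5 went opposite ways, against 55.9%. *Krt20*, *Aqp8*, *Car1*, *Guca2a* and *Saa1* of this list were not measured there, and its part in the ratios of the 8 genes was not tested.

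**Figure D3:**
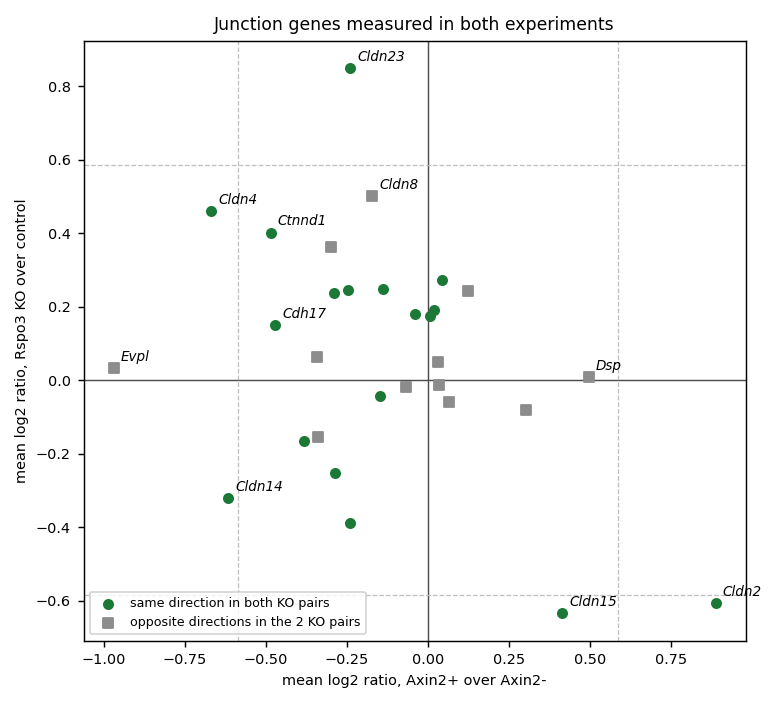
Mean log2 ratio in Axin2+ over Axin2- cells (horizontal) against *Rspo3* KO over control colon (vertical) for 30 of the 31 junction genes, with green circles for genes alike in both KO pairs, grey squares for the others and dashed lines at 1.5-fold. *Cldn2* and *Cldn15* stand at the lower right, *Cldn23* and *Cldn4* at the upper left.

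The levels of single channels, as log2 intensity after normalisation, show on what these ratios rest. *Cldn2* was at 12.88 and 12.75 in Axin2+ cells and at 11.80 and 12.05 in Axin2- cells. In colon, *Cldn2* was at 9.21 and 9.72 in the KO mice and at 9.82 and 10.32 in the controls. The KO of pair 2 was just under the control of pair 1. *Cldn15* was at 9.33 and 9.01 in the KO and at 9.93 and 9.67 in the controls. *Cldn10* was near the lower end of the scale in the controls (6.85 and 6.79) and at 8.36 and 8.03 in the KO. *Cldn4* was at 8.17 and 8.47 in the KO and at 7.66 and 8.05 in the controls. *Evpl* was at 11.10 and 11.18 in Axin2+ and at 12.04 and 12.17 in Axin2- cells. The sorted cells and the colon were on different slides and differ in RNA source, and no difference between them is drawn.

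**Figure D4:**
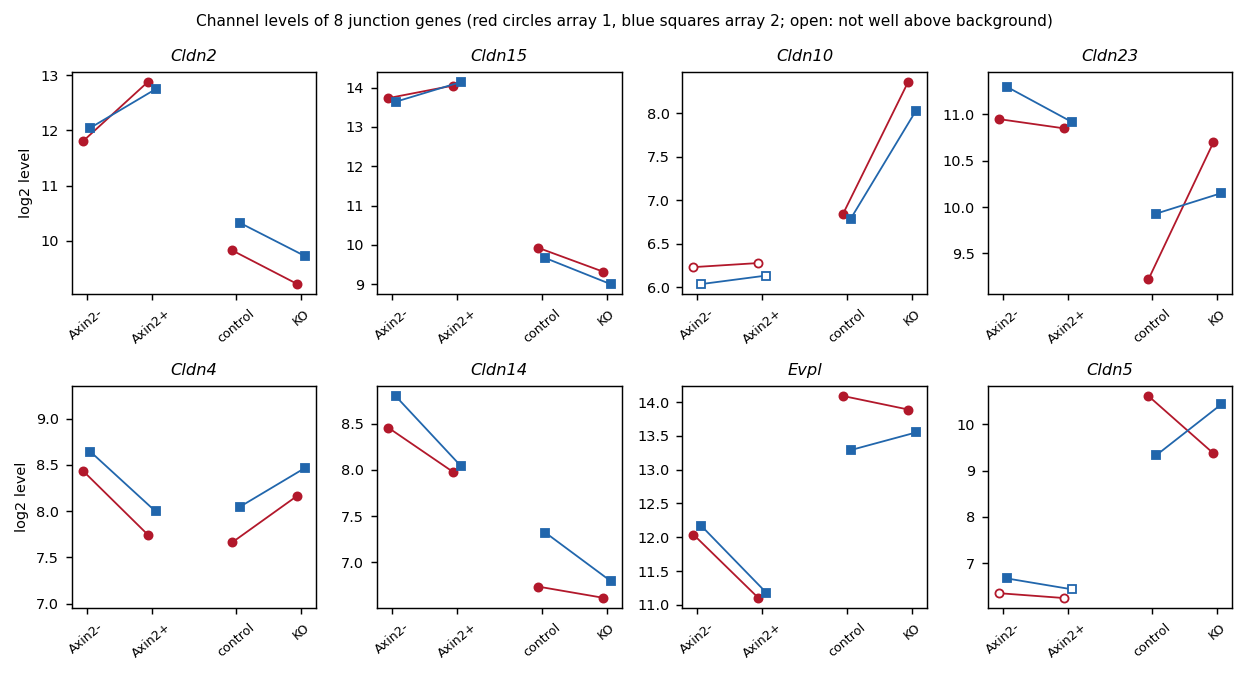
Normalised log2 level of 8 junction genes in the Axin2- and Axin2+ pools and in control and KO colon, 1 panel per gene with its own axis, where lines join the channels of 1 array and open symbols were not well above background. The *Cldn5* lines of the colon arrays cross, and those of *Cldn2*, *Cldn15*, *Cldn10* and *Cldn4* run the same way in both pairs.

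A list of 47 other junction genes, such as nectins, polarity proteins and angulins, was read beside them. In Axin2+ cells 38 were measured, with a median of -0.15, 2 past 1.5-fold higher and 7 lower (against 7.82% and 6.95% of all genes). The higher ones were *Nectin3*, an adhesion molecule of adherens junctions (0.72 and 0.86), and *Cgnl1* (paracingulin, 0.59 and 0.74). The 3 lowest were *Cdhr2* (-1.20 and -1.41) and *Cdhr5* (-1.11 and -1.40), the protocadherins that tie microvilli together, and the polarity protein *Crb3* (-1.06 and -0.71). In KO colon 45 were measured, with a median of 0.041 and 0 called by limma (1 at an unadjusted p under 0.05), and only *Ildr2*, an angulin, was past 1.5-fold in the same direction in both pairs (1.22 and 0.062).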

How the data were processed

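The labels gave the groups; they and the paper's methods differ on the RNA extraction and on which part of the colon was taken. The authors hybridised and scanned the arrays and ran Agilent Feature Extraction (version 11.5.1.1 per the file headers). The authors deposited spot and background intensity on a linear scale and log10 of the Cy5 to Cy3 ratio, which the series' value table repeats. The software's flags for outliers and for signal above background were used as deposited. Positions of probes are mm9.

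With limma (version 3.58.1, R version 4.3.3), background was corrected by normexp (offset 50, spots with a background outlier, 66 and 6 on the KO arrays, kept out of the fit), each array was normalised by loess, and ratios were turned to put KO or Axin2+ on top, and averaged per probe without control and outlier spots (124 to 510 per array). The brightest probe with a value on both arrays of an experiment stood for a gene. Of 41174 probes, 28462 were named by accession, 5516 by symbol and 197 by synonym in RefSeq GRCm38.p6, and the rest kept the file's name. Between 53.1% and 60.3% of spots per channel were well above background, and precision is limited by having 2 arrays an experiment. KO ratios were tested against 0 with lmFit and eBayes and Benjamini-Hochberg adjustment over all genes; the sorted cells were not tested. Levels were scaled by Aquantile. The test was tested on simulated data, where it called few changes of 2-fold and nearly all of far larger ones; the simulated spread and the larger change were set again after a first simulation made no calls. The p-values rest on 2 pairs, but not on each gene's own variance alone. In eBayes that variance is drawn toward a value estimated from the other genes tested. In KO colon *Cldn2* had an SD of 0.0059 between pairs and a limma standard error of 0.23. *Cldn23* had an SD of 0.89 and a limma standard error of 0.32.

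The members, lists, motifs and rules were chosen with earlier results of these data known; further motifs that matched no member were searched and are not shown. The values of 1 member, which enters the counts and medians, are not reported here. The other genes could be named. Those past 1.5-fold alike, the brightest of each role, *Epcam* and genes with disagreeing probes were given by array in at least 1 experiment. Of the other junction genes, the 3 largest rises and falls past 1.5-fold were given. Alternatives were the software's ratios, the value table, no background correction, offset 16, background fitted to all spots, median centring, other filters on dim probes, the mean over probes, each array left out, a 2-fold limit, error weights, a dye term over 4 arrays and, added after seeing the data, outlier spots kept.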

Additional observations from a re-analysis of the deposited data

How the results depend on the processing

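No paired analysis was possible because each ratio already compares 1 pair of mice, or the same pools, so that there is no further block to add. The limma counts could not be recomputed with 1 array left out, since no residual degree of freedom remains. The number of genes called by limma in KO colon, 34 as reported (703 at an unadjusted p under 0.05), was 119 with the software's ratios, the value table or offset 16, 69 without background correction, 230 with the dye term, 7 with median centring, 3 with the mean over probes, 1 with the background fitted to all spots and 0 without the filter on dim probes (limma, 1194 at an unadjusted p under 0.05). The fit with the dye term covered the 13583 genes measured in both experiments, without *Cldn10*, and drew its spread in part on the dye swap of the same pools. The number of junction genes called by limma, 0 as reported, was 1 (*Cldn10*) with the software's ratios, the value table, no background correction or offset 16. The count past 1.5-fold lower in KO, 2 as reported, was 0 with the background fitted to all spots, median centring or the 2-fold limit and 3 with the software's ratios or the value table, which add *Cldn14*, and the count higher, also 2, was 1 with median centring or the 2-fold limit. In the sorted cells the count higher, 1, and lower, 3, were each 0 with median centring or the 2-fold limit, and the count lower was 5 with the software's ratios or the value table, which add *Ctnnd1* and *Jup*. The median of the sorted cells, -0.14, was -0.27 with median centring and -0.039 without the filter on dim probes. With each array left out, the counts in KO ranged from 2 to 5 higher and were 3 lower, and the median from 0.073 to 0.20; the 5 higher, from pair 1 by itself, add *Cldn8*, *Cldnd1* and *Ctnnd1*, and the 2 from pair 2 by itself are *Cldn10* and *Cldn5*, which was lower in pair 1. In the sorted cells they ranged from 1 to 2 higher and 2 to 4 lower, and the median from -0.17 to -0.099; array 1 by itself adds *Dsp* to the higher ones and loses *Cldn14*, and array 2 by itself adds *Ctnnd1* to the lower ones. The cause of these changes was not tested. No junction gene past 1.5-fold changed the sign of its mean under any alternative. With both arrays kept, the means in KO lay for *Cldn10* between 0.73 and 2.33, *Cldn23* between 0.65 and 0.91, *Cldn2* between -0.67 and -0.45 and *Cldn15* between -0.71 and -0.49, and by single pairs *Cldn23* was at 1.48 in pair 1 and 0.22 in pair 2. Dim probes limit the size of *Cldn10*, and 2 pairs limit what the test can call.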
